A study of Mus musculus with 13 samples.

Results

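The 8 genes described here encode fatty acid desaturases and elongases of the mouse liver: Fads1, Fads2, Fads3, Elovl1, Elovl2, Elovl3, Elovl5 and Scd2. They were chosen by name, as every probe that the array files assign to one of them, which gave 11 probes of the 39429 on the array and 8 of the 19518 genes tested. Liver RNA of 13 samples was hybridised to Agilent one-colour arrays, 1 array per sample, and the labels call the samples of a group biological replicates. All samples came from female C57BL6 mice labelled 12 weeks old. HFHS vehicle livers (5 samples) came from mice on the HFHS diet, which the series text calls high-fat. ST pollutants livers (5 samples) came from mice on standard diet (ST) exposed to a mixture of 4 pollutants, not named in the labels. ST vehicle livers (3 samples) had the standard diet and no mixture, and are the control for both. The series text can also be read as placing the mixture in the high-fat diet, and the sample labels were followed.

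Mammals cannot make linoleic and alpha-linolenic acid, and the liver converts these dietary fatty acids into longer polyunsaturated ones by alternating desaturation, which adds a double bond, with elongation, which adds carbons at the carboxyl end. FADS2 takes the first desaturation, ELOVL5 elongates its product, FADS1 makes arachidonic and eicosapentaenoic acid, and ELOVL2 makes the precursors of docosahexaenoic acid, whose last step takes place in peroxisomes. Transcription of this pathway in liver is known to be driven by the sterol regulatory element binding protein SREBP-1c and by PPARalpha, and to be lowered by polyunsaturated fat in the diet. Not every member handles polyunsaturated fatty acids: FADS3 acts on sphingoid bases, ELOVL1 and ELOVL3 mainly lengthen saturated and monounsaturated chains, and SCD2 is a stearoyl-CoA desaturase that makes monounsaturated fatty acids.

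Fads2 was measured by a pair of probes at separate places of the gene, and the results for them differ below. The dimmer probe, at chr19:10163229-10163288 on the minus strand of mouse build mm9, lies at base 595 of its transcript. Its sequence, as the array files give it, is shown because an open reading frame of it holds a histidine box, the metal-binding motif of these desaturases (histidine, 3 other residues, histidine), whose bases are in capitals. The brighter probe lies at chr19:10137760-10137819 on the same strand, and the array files assign it to another transcript record of Fads2.
Fads2 probe: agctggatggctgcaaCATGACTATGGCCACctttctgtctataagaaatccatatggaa

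On the same build, the array files place Fads1 at chr19:10270530-10270589 and Fads3 at chr19:10132641-10132700 and chr19:10134543-10134602, all on the plus strand and in the same stretch of the chromosome as Fads2. Scd2 (chr19:44381024-44381083) and Elovl3 (chr19:46209762-46209821) lie on the plus strand farther along it. The other elongase probes are at chr4:118105163-118105222 and chr4:118104741-118104800 (Elovl1, plus strand), chr13:41277884-41277943 (Elovl2, minus strand) and chr9:77832205-77832264 (Elovl5, plus strand).

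Promoter windows from RefSeq on build GRCm38.p6 were searched for a sterol response element (TCACNCCAC), the CCAAT box (CCAAT) bound by a usual partner of SREBP, the GC box (GGGCGG), the E-box (CACGTG) and the ROR and REV-ERB site (TAGGTCA), on both strands of the 250 bases before each start. Windows were given for 5 of the members, 7 windows in all. Fads2 and Elovl5 are shown as the first desaturase and elongase of the pathway, and Hmgcs1, a cholesterol synthesis gene that fell in both comparisons with ST vehicle below, is shown beside them. Capitals mark the matches to any of these motifs. The Fads2 window is chr19:10101504-10101753, minus strand, the Elovl5 window is chr9:77917115-77917364, plus strand, and the Hmgcs1 window is chr13:119690101-119690350, plus strand.
Fads2: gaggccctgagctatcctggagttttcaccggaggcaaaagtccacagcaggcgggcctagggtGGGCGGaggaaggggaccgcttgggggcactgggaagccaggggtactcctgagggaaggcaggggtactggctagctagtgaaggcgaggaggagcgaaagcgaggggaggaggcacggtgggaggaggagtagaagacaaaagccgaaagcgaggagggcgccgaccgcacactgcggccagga
Elovl5: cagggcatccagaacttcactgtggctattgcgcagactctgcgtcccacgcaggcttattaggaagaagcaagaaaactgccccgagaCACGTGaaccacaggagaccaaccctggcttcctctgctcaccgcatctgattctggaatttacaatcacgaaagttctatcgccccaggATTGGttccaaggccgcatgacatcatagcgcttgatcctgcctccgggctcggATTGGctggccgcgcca
Hmgcs1: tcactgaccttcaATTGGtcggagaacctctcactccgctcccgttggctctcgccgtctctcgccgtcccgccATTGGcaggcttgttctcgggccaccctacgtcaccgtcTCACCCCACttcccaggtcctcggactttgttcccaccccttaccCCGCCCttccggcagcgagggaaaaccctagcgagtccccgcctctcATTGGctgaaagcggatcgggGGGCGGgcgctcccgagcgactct
The letters of the sterol response element were in none of the 7 member windows, in 1 of 17 windows of 14 cholesterol synthesis genes (Hmgcs1), and in 1.05% of 32851 windows of all genes. A CCAAT box was in 3 of 7 member windows (Elovl1, Elovl5 and Fads3) and in 14 of the 17 cholesterol windows, against 33.8% of all windows. A GC box was in 5 of 7 member windows (Elovl1, Elovl2, Fads2 and Fads3) and in 14 of the 17 cholesterol windows, against 32.7% of all windows. An E-box was found in the Elovl5 window alone among the members and in 3 of the 17 cholesterol windows, against 6.02% of all windows. The ROR and REV-ERB site was in none of the member windows and in 1 of the 17, against 2.23%. A match is only a match of letters, and its absence says that these letters are not in this window.

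Signal was taken as the log2 of the scanner program's processed signal minus the 75th percentile of the array, so 0 is the level of that percentile and a difference of 1 is a doubling. All 11 member probes were well above background on all 13 arrays, and none of their values was saturated or marked as an outlier spot. The 9 hepatocyte markers listed were also well above background on every array. Correlations between arrays were 0.977 to 0.992 within groups and 0.973 to 0.992 between groups. Individual samples, and in places whole groups, stood apart in markers of other cells. In the mean of the cholangiocyte markers, the HFHS samples lay below the ST vehicle samples but overlapped with the pollutant samples. For the erythroid markers, the pollutant samples lay above the ST vehicle samples, and the HFHS samples overlapped with both. The mean of 15 pancreatic acinar markers was 3.58 to 6.92 in HFHS replicates 3, 4 and 5, against -4.07 to -2.07 on the other 10 arrays. The adipocyte, cholangiocyte and erythroid markers are described with Fads3 and Scd2. In RNA from whole tissue, fewer cells of a type and less RNA per cell cannot be told apart.

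None of the 8 genes passed the test in any of the comparisons, which does not show that their levels were equal. The HFHS diet against ST vehicle called 0 of 8 members at an adjusted p under 0.05, where 0.687% of all genes tested were called. Pollutants against ST vehicle called 0 of 8, against 0.984% of all genes, and HFHS against pollutants called 0 of 8, against 3.87% of all genes. Every adjusted p of a single gene comes from 1 limma model of the 3 groups with Benjamini-Hochberg adjustment over all genes. At an unadjusted p under 0.05, no member passed in HFHS against ST vehicle or in HFHS against pollutants (12.1% and 18.3% of all genes did), and 1 member, Fads1, passed in pollutants against ST vehicle (12.1% of all genes did). The median log2 difference of the 8 members was -0.22 in HFHS against ST vehicle, beside -0.02 over all genes. It was -0.11 in pollutants against ST vehicle, beside -0.01, and -0.17 in HFHS against pollutants, beside -0.01. The comparisons with ST vehicle share those 3 arrays.

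**Figure D1:**
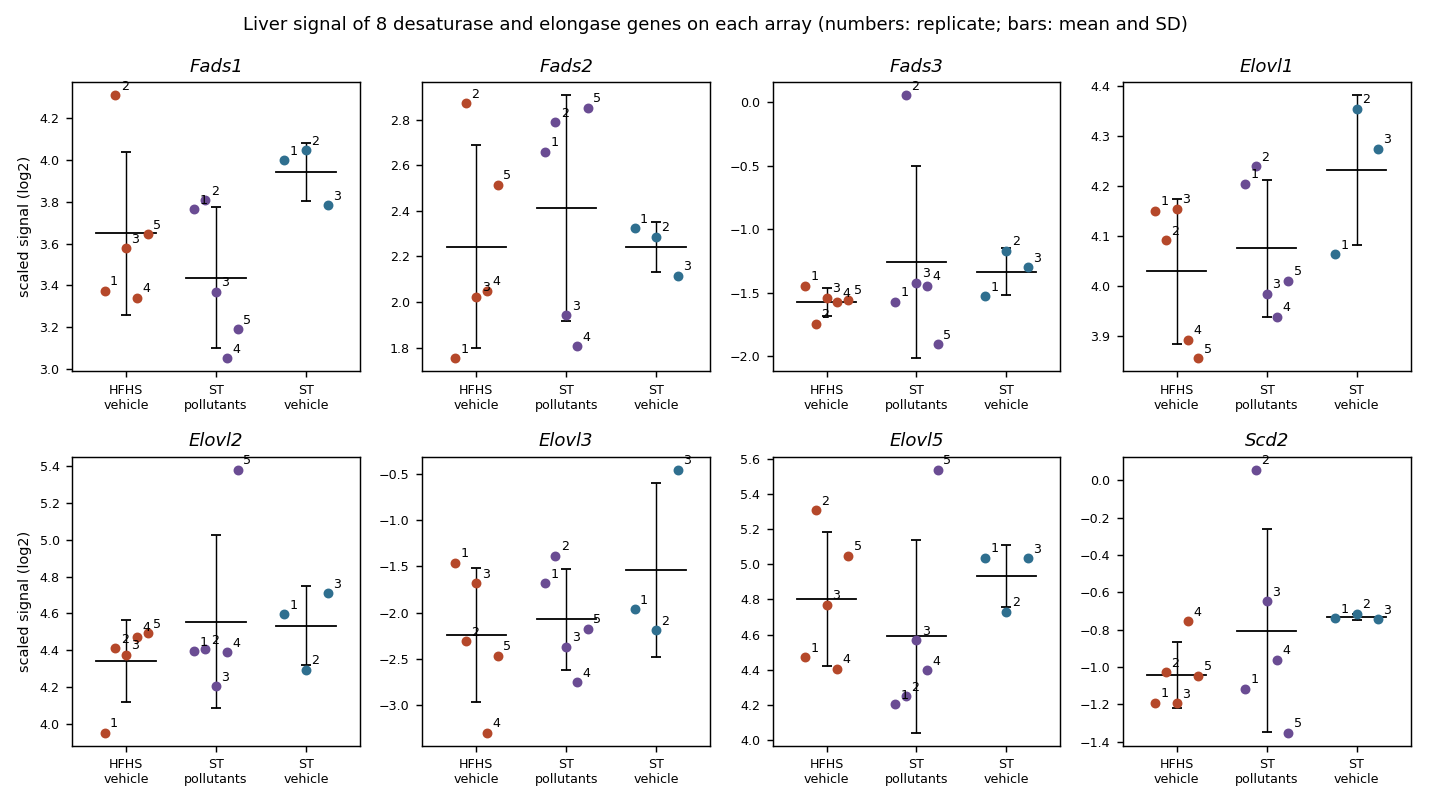
Scaled log2 signal (vertical axis, its own range in each panel) of the 8 genes on each of 13 arrays, in HFHS vehicle, ST pollutants and ST vehicle; numbers are replicates, the horizontal line is the group mean and the bar its SD. Single arrays stand away from their group, such as ST pollutants replicate 2 in Fads3 (0.05) and Scd2 (0.06) and ST pollutants replicate 5 in Elovl2 (5.38) and Elovl5 (5.54).

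Fads1 encodes the delta-5 desaturase, which makes arachidonic and eicosapentaenoic acid. Its scaled log2 signal was 3.38, 4.31, 3.58, 3.34 and 3.64 in the HFHS samples. It was 3.77, 3.81, 3.37, 3.05 and 3.19 in the pollutant samples and 4.00, 4.05 and 3.78 in the ST vehicle samples. All 5 pollutant samples but 1 lay below the lowest ST vehicle sample, and HFHS replicate 2 stood above every other array. The pollutant mean was lower than the ST vehicle mean by a log2 difference of -0.51 ± 0.23 (SE, n = 5 and 3; 95% interval -1.001 to -0.01), a ratio of 0.70. That difference had an unadjusted p of 0.0462 and an adjusted p of 0.399 in the limma model, and it ranked 2258 by p among the 19518 genes. Within slides, the difference was below 0 on all 3 slides that held both groups, between -0.59 and -0.23. HFHS against ST vehicle gave -0.29 ± 0.23 (adjusted p = 0.751), and -0.46 without HFHS replicate 2 (adjusted p = 0.424). HFHS against pollutants gave 0.21 ± 0.20 (adjusted p = 0.684).

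Fads2 encodes the delta-6 desaturase, the enzyme at the entry of the pathway. Its brighter probe read 1.75, 2.87, 2.02, 2.05 and 2.51 in HFHS samples, 2.66, 2.79, 1.94, 1.81 and 2.85 in pollutant samples, and 2.32, 2.29 and 2.12 in ST vehicle samples. The pollutant samples fell into replicates 1, 2 and 5, above every ST vehicle sample, and replicates 3 and 4, below every ST vehicle sample. The HFHS and ST vehicle means were both 2.24, with SDs of 0.45 and 0.11. The log2 difference was 0.0005 ± 0.29 (95% interval -0.62 to 0.62) (adjusted p = 1), an interval that leaves room for a difference in either direction. The pollutant difference from ST vehicle was 0.17 ± 0.29 (95% interval -0.46 to 0.79; adjusted p = 0.921). HFHS against pollutants gave -0.17 ± 0.25 (adjusted p = 0.846). On this probe the pollutant sample was above the ST vehicle sample on all 3 shared slides, by 0.34 to 0.74.

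The other Fads2 probe, whose sequence is printed above, read 0.72, 1.96, 0.83, 0.97 and 1.34 in HFHS samples. It read 1.13, 1.14, 0.89, 0.83 and 1.16 in pollutant samples and 1.09, 1.19 and 0.94 in ST vehicle samples. Both probes were highest among the HFHS samples in replicate 2 and lowest in replicate 1. In the pollutant samples the dimmer probe lay within 0.83 to 1.16, while the brighter lay within 1.81 to 2.85. For the dimmer probe, HFHS against ST vehicle gave 0.09 ± 0.23 (adjusted p = 0.976) and pollutants against ST vehicle gave -0.04 ± 0.23 (adjusted p = 0.983). HFHS against pollutants gave 0.14 ± 0.20 on the dimmer probe (adjusted p = 0.836), opposite in sign to the -0.17 of the brighter probe. Within slides its difference between pollutants and ST vehicle was -0.04 to 0.22, and it was below 0 on 1 of 3 slides.

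Elovl5, the elongase that follows FADS2, read 4.47, 5.31, 4.77, 4.41 and 5.05 in HFHS samples, 4.20, 4.25, 4.57, 4.40 and 5.54 in pollutant samples, and 5.04, 4.73 and 5.03 in ST vehicle samples. In the pollutant group 4 of 5 samples lay below every ST vehicle sample, and replicate 5 was the highest of all 13 arrays. Pollutants against ST vehicle gave a log2 difference of -0.34 ± 0.29 (95% interval -0.98 to 0.29; adjusted p = 0.763), and -0.58 without pollutant replicate 5 (unadjusted p = 0.0161, adjusted p = 0.291). Leaving out the highest pollutant sample by itself lowers the mean of that group. Over 28 alternatives the difference ran from -0.581 to -0.195, with an unadjusted limma p under 0.05 in 2 of them. HFHS against ST vehicle gave -0.13 ± 0.29 (adjusted p = 0.975). HFHS against pollutants gave 0.21 ± 0.25 (adjusted p = 0.784).

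Elovl2, which elongates the longer polyunsaturated chains toward docosahexaenoic acid, read 3.95, 4.41, 4.38, 4.47 and 4.49 in HFHS samples. It read 4.40, 4.41, 4.20, 4.39 and 5.38 in pollutant samples and 4.60, 4.30 and 4.71 in ST vehicle samples. Pollutant replicate 5 was again the highest of all arrays, and HFHS replicate 1 the lowest. Pollutants against ST vehicle gave 0.02 ± 0.23 (adjusted p = 0.992), which was -0.18 without pollutant replicate 5 (adjusted p = 0.766). HFHS against ST vehicle gave -0.19 ± 0.23 (95% interval -0.70 to 0.32; adjusted p = 0.900), and HFHS against pollutants gave -0.21 ± 0.20 (adjusted p = 0.692). On pollutant replicate 5 the mean of 15 PPARalpha target genes was also the highest of the 13 arrays, at 4.79 against 3.70 to 4.22 in the other pollutant samples. Its part in the Elovl2 and Elovl5 values was not tested.

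**Figure D2:**
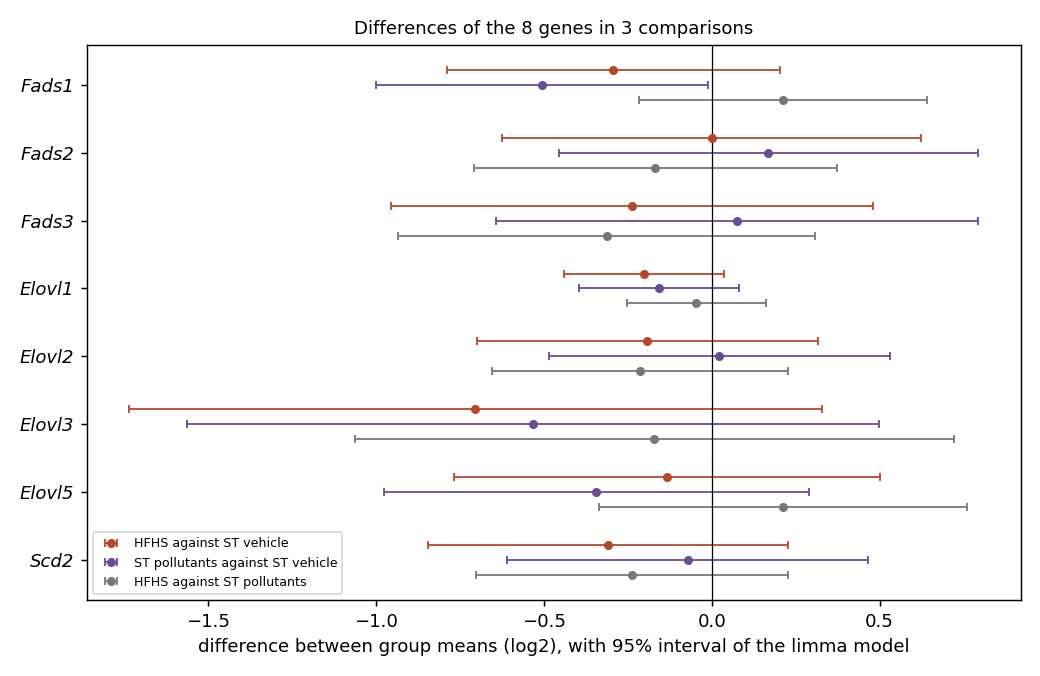
Log2 differences between group means (points; horizontal axis) with the 95% intervals of the limma model (bars) for the 8 genes, in HFHS against ST vehicle, ST pollutants against ST vehicle and HFHS against ST pollutants. All intervals include 0 except that of Fads1 in ST pollutants against ST vehicle (-1.001 to -0.01), whose adjusted p was 0.399; the intervals of Elovl3 are the widest.

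Fads3, which introduces a double bond into sphingoid bases, read -1.44, -1.74, -1.54, -1.57 and -1.55 in HFHS samples on its brighter probe. It read -1.57, 0.05, -1.42, -1.45 and -1.91 in pollutant samples and -1.53, -1.17 and -1.30 in ST vehicle samples. The second Fads3 probe put the same array highest, at -2.21 in pollutant replicate 2 against -3.32 to -3.01 in the other pollutant samples. For pollutants against ST vehicle the difference was 0.08 ± 0.33 (adjusted p = 0.981), and -0.25 ± 0.13 without pollutant replicate 2 (adjusted p = 0.483). The HFHS difference from ST vehicle was -0.24 ± 0.33 (adjusted p = 0.927), and HFHS against pollutants gave -0.31 ± 0.29 (adjusted p = 0.676).

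Scd2, a stearoyl-CoA desaturase known mainly from brain, fat and the liver of newborn mice, read -1.19, -1.03, -1.19, -0.76 and -1.05 in HFHS samples. It read -1.12, 0.06, -0.65, -0.96 and -1.35 in pollutant samples and -0.74, -0.72 and -0.75 in ST vehicle samples. Every HFHS sample lay below every ST vehicle sample, with the nearest samples almost level. Scd2 was the only member whose groups did not overlap in that comparison, against 9.15% of all genes tested. No member's groups were apart in pollutants against ST vehicle or in HFHS against pollutants, where 8.32% and 6.96% of all genes were. HFHS against ST vehicle gave -0.31 ± 0.25 (95% interval -0.85 to 0.23; adjusted p = 0.765), and -0.31 ± 0.15 without pollutant replicate 2 (adjusted p = 0.436). Within slides the difference was below 0 on 3 of 3 slides, between -0.45 and -0.30. The mean of 6 cholangiocyte markers separated the same groups, at -3.359 to -3.001 in HFHS and -2.573 to -2.501 in ST vehicle samples, with 5 or 6 of the 6 well above background on each of these arrays. Its part in the Scd2 difference was not tested. The difference of pollutants from ST vehicle was -0.07 ± 0.25 (adjusted p = 0.971), and -0.29 ± 0.16 without pollutant replicate 2 (adjusted p = 0.505).

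Pollutant replicate 2, high in both Fads3 and Scd2, was also high in adipocyte markers. The mean of all 9 listed adipocyte markers on that array was 0.65, against -3.17 to -1.67 in the other pollutant samples. The mean was -2.97 to -2.29 in HFHS samples and -2.84 to -1.37 in ST vehicle samples. Of the 9 markers, 9 were well above background on that array, as they were on pollutant replicate 4, and 4 to 8 on the other 11 arrays. Ucp1, the uncoupling protein of brown fat, read 1.73 there, against -7.69 to -4.42 on the other 12 arrays. Cidea, a lipid droplet protein of fat cells, read 1.20 there, against -5.34 to -2.76, and the adipokine gene Adipoq read -0.48, against -6.23 to -1.87. Lep, which encodes leptin, read -4.49 there, inside its range of -5.23 to -2.98 on the others, and so did the abundant Car3. The same array was the highest of the 13 in the mean of 6 cholangiocyte markers, at -2.11, and in that of 6 erythroid markers, at 2.11. The erythroid mean also separated whole groups, at 1.483 to 2.113 in pollutant and 0.957 to 1.286 in ST vehicle samples. In HFHS samples it was 1.021 to 1.675. Its part in the differences of pollutants from ST vehicle was not tested. The part of these transcripts in the Fads3 and Scd2 values was not tested either, and the values without pollutant replicate 2 stand beside them above.

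Elovl1, which makes very long saturated and monounsaturated chains for sphingolipids, varied least. It read 4.15, 4.09, 4.16, 3.89 and 3.86 in HFHS samples, 4.20, 4.24, 3.98, 3.94 and 4.01 in pollutant samples, and 4.06, 4.35 and 4.27 in ST vehicle samples. With the HFHS diet, the difference from ST vehicle was -0.20 ± 0.11 (95% interval -0.44 to 0.04; adjusted p = 0.527). Pollutants against ST vehicle gave -0.16 ± 0.11 (95% interval -0.40 to 0.08; adjusted p = 0.685), and HFHS against pollutants gave -0.05 ± 0.10 (adjusted p = 0.911). The second Elovl1 probe gave -0.20 ± 0.12 and -0.18 ± 0.12 in the comparisons with ST vehicle. These are the narrowest intervals among the members.

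Elovl3, an elongase of brown fat and skin that is also higher in male than in female mouse liver, varied most. It read -1.46, -2.31, -1.68, -3.29 and -2.47 in HFHS samples, -1.68, -1.39, -2.37, -2.75 and -2.17 in pollutant samples, and -1.97, -2.19 and -0.46 in ST vehicle samples. ST vehicle replicate 3 stood above all the others. HFHS against ST vehicle gave -0.70 ± 0.47 (95% interval -1.74 to 0.33; adjusted p = 0.672), and -0.17 without ST vehicle replicate 3 (adjusted p = 0.962). With pollutants, the difference from ST vehicle was -0.53 ± 0.47 (adjusted p = 0.776), and 0.01 without that replicate. HFHS against pollutants gave -0.17 ± 0.41 (adjusted p = 0.93). Pollutant replicate 2, in which Ucp1 and Cidea were high, was the highest pollutant sample in Elovl3, at -1.39. The part of those fat cell transcripts in the Elovl3 value was not tested. The mean of 10 other male-biased liver genes was 3.62 in ST vehicle replicate 3, against 1.90 and 2.29 in the other ST vehicle samples, 1.88 to 2.40 in HFHS samples and 1.87 to 2.74 in pollutant samples. Its part in the Elovl3 value was not tested.

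**Figure D3:**
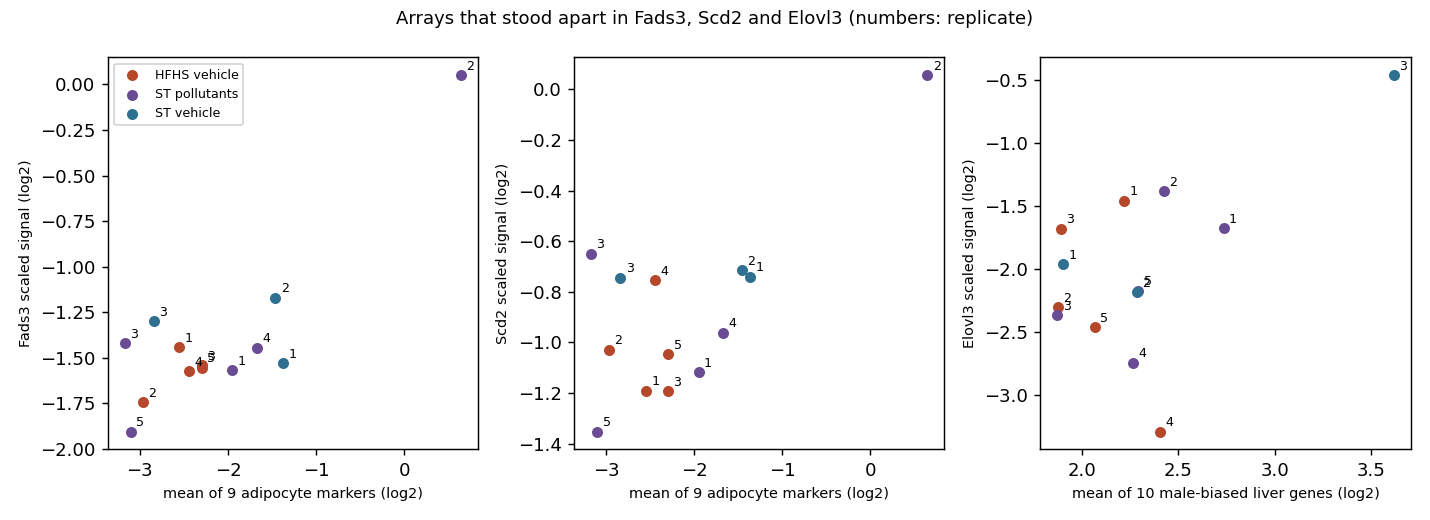
Scaled log2 signal of Fads3, Scd2 and Elovl3 (vertical axes) on each of the 13 arrays against the mean of 9 adipocyte markers or of 10 male-biased liver genes (horizontal axes, log2); colours are groups and numbers replicates. ST pollutants replicate 2 is at the upper right in Fads3 and Scd2 (adipocyte mean 0.65), and ST vehicle replicate 3 in Elovl3 (male-biased mean 3.62).

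For 7 of the 8 members the spread between samples of a group was above the median of all genes, 0.20. The within-group SD was 0.33 for Fads1, 0.42 for Fads2, 0.49 for Fads3, 0.34 for Elovl2, 0.71 for Elovl3, 0.43 for Elovl5 and 0.36 for Scd2, which placed them between the 71.8 and the 95 percentile of all genes tested. Elovl1, with 0.14, was at the 28.3 percentile. Over the 13 arrays, 28 pairs of members were correlated, with permutation p-values adjusted over the 28. The permutations shuffled all 13 arrays freely. They took no account of the groups and slides that the arrays share, which limits what these p-values measure. Fads3 and Scd2 had Pearson r = 0.88 (p = 0.00082, adjusted 0.0230) and Spearman rho = 0.69 (p = 0.0113, adjusted 0.158), with r = 0.47 without the 2 arrays farthest from the median of Fads3. Elovl1 and Elovl3 had r = 0.73 (adjusted p = 0.0517 by permutation) and rho = 0.79 (adjusted p = 0.0571 by permutation). Without the 2 arrays farthest from the median of Elovl1, r was 0.93. ST vehicle replicate 3, the highest array in Elovl3, was not among these 2 and stayed in. Fads1 and Fads2, neighbours on chromosome 19, had r = 0.50 (permutation p = 0.0848, adjusted 0.339) and rho = 0.51 (permutation p = 0.0780, adjusted 0.312). Their r was 0.19 without the 2 arrays farthest from the median of Fads1. Elovl2 and Elovl5 had r = 0.66 (permutation p = 0.00789, adjusted 0.0736) and rho = 0.53 (permutation p = 0.0632, adjusted 0.309). Their r was 0.41 without the 2 arrays farthest from the median of Elovl2. On deviations from the group means, r was 0.73 for Fads1 and Fads2, 0.79 for Elovl2 and Elovl5, 0.88 for Fads3 and Scd2 and 0.66 for Elovl1 and Elovl3.

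The genes whose pattern over the 13 arrays was most like that of a member, by Pearson r among all genes with a symbol, are a description with no test, and the arrays share groups and slides. They were Gpr89 (0.88), Prxl2a (0.88) and Tlcd2 (0.87) for Fads1, and Zbtb41 (0.78), Plscr1 (0.78) and Prpf4b (0.76) for Fads2. St14 (0.96), Ezr (0.95) and Mapt (0.94) were most like Fads3, and Sfxn3 (0.96), Adam15 (0.91) and Kcnq1 (0.90) most like Scd2. Pxmp4 (0.94), Carns1 (0.87) and Ints7 (0.87) were most like Elovl1, and Hps4 (0.87), Sema3d (0.86) and Crybb3 (0.86) most like Elovl3. Agap2 (0.87), Ell2 (0.87) and Copb2 (0.84) were most like Elovl2, and Pgm3 (0.87), Bmp5 (0.86) and Ppig (0.85) most like Elovl5. By Spearman rho the genes named for Elovl2 were less alike, at 0.571, 0.692 and 0.434. Those named for Fads3 had rho of 0.813, 0.725 and 0.747, and for the other members rho was 0.764 to 0.956. In Elovl2 and Fads3 a single pollutant sample was far above the other pollutant samples, which weighs on Pearson r.

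The other enzymes of the same chemistry gave no call either. Of 17 listed desaturases, elongases and elongation cycle enzymes outside the 8, 16 were tested, and 0 passed in each of the 3 comparisons, with medians of -0.11, -0.01 and -0.04. Scd1, the main stearoyl-CoA desaturase of adult liver, gave 0.04 ± 0.37 in HFHS against ST vehicle (adjusted p = 0.998). Tecr, the last enzyme of the elongation cycle, gave -0.40 ± 0.13 in HFHS against ST vehicle (adjusted p = 0.219) and -0.37 ± 0.13 in pollutants against ST vehicle (adjusted p = 0.230). Of 10 peroxisomal genes of docosahexaenoic acid synthesis, 0 passed in any comparison, with medians of 0.19, 0.19 and -0.06.

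Genes that handle the products of the pathway included 3 that were called. Of all genes tested, 0.687% were called in HFHS against ST vehicle, 0.984% in pollutants against ST vehicle and 3.87% in HFHS against pollutants. Acsl3, an acyl-CoA synthetase, fell in HFHS livers, with a mean of -1.48 ± 0.35 in HFHS and -0.36 ± 0.30 in ST vehicle samples (SD, n = 5 and 3). The log2 difference was -1.12 ± 0.23 (adjusted p = 0.0499), and it was the 1 called of 7 acyl-CoA synthetases tested. It stayed called in 3 of 13 fits that left out 1 array, those without HFHS replicate 3, pollutant replicate 2 or pollutant replicate 4. Mfsd2a, which carries lysophosphatidylcholine with docosahexaenoic acid across membranes, averaged 3.93 ± 0.43 in pollutant livers and 2.13 ± 0.66 in ST vehicle livers (SD, n = 5 and 3). It rose by 1.80 ± 0.33 (adjusted p = 0.0290), the 1 called of 9 incorporation genes tested, and stayed called in 8 of 13 fits that left out 1 array. The call was lost without any 1 of the 3 ST vehicle samples, pollutant replicate 3 or pollutant replicate 5 (adjusted p up to 0.133). It was also lower in HFHS livers (2.54 ± 0.44) than in pollutant livers, by -1.39 ± 0.29 (adjusted p = 0.0208), a call lost without HFHS replicate 1 (adjusted p = 0.0505). Cyp2j5, a cytochrome that epoxidises arachidonic acid, averaged 0.25 ± 0.13 in HFHS and -0.48 ± 0.22 in pollutant livers. That difference of 0.73 ± 0.12 (adjusted p = 0.00713) was the 1 call among 13 release and oxygenation genes, and it was called in all 13 fits that left out 1 array, but not without pollutant replicates 2 and 5 together (0.75, adjusted p = 0.0513). In each of these 3 lists, 0 genes passed in any comparison without HFHS replicates 3, 4 and 5 together, without pollutant replicates 2 and 5 together, or without the arrays of slide 1.

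Of 13 regulators of the pathway, 0 passed in any comparison. Srebf1, which encodes SREBP-1, read 0.76 ± 0.42 in HFHS, 0.05 ± 0.40 in pollutant and 0.32 ± 0.32 in ST vehicle samples. Its log2 difference was 0.44 ± 0.27 in HFHS against ST vehicle (adjusted p = 0.592) and -0.27 ± 0.27 in pollutants against ST vehicle (adjusted p = 0.807). Insig2, which holds SREBP precursors in the endoplasmic reticulum, gave -0.78 ± 0.17 (adjusted p = 0.0666) and -0.74 ± 0.17 (adjusted p = 0.0680) in the same comparisons.

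Genes of cholesterol synthesis, targets of the related factor SREBP-2, differed much more on the same arrays. Of 22 such genes, 13 fell and 0 rose in HFHS against ST vehicle, where 0.687% of all genes were called. Their median was -1.46, beside -0.22 for the 8 members and -0.02 for all genes. In pollutants against ST vehicle, where 0.984% of all genes were called, 4 of 22 fell. Their median was -0.94, beside -0.11 for the members. Without each array in turn the counts were 1 to 13, lowest without ST vehicle replicate 1 or 2, and 0 to 7, at 0 without any 1 ST vehicle sample or pollutant replicate 3 or 5, while the medians stayed within -1.63 to -1.20 and -1.10 to -0.80. Without HFHS replicates 3, 4 and 5, which carried the acinar markers, 0 of 22 passed in HFHS against ST vehicle, where 2 HFHS arrays remained, and the median was -1.36. Without pollutant replicates 2 and 5, 0 of 22 passed in pollutants against ST vehicle, and the median was -0.99. Leaving out the arrays of slide 1 gave 0 of 22 in both comparisons with ST vehicle. The medians were then -1.596 with HFHS and -1.067 with pollutants. In HFHS against pollutants, where 3.87% of all genes were called, 1 of 22 was lower (Tm7sf2) and the median was -0.55. The Tm7sf2 call held in all 13 fits that left out 1 array. It was lost without HFHS replicates 3, 4 and 5 together and without slide 1. Hmgcs1, whose promoter is printed above, averaged 4.27 ± 0.54 in HFHS, 4.86 ± 0.28 in pollutant and 6.26 ± 0.23 in ST vehicle samples. Its limma differences from ST vehicle were -1.98 ± 0.27 with HFHS (adjusted p = 0.0115) and -1.39 ± 0.27 with pollutants (adjusted p = 0.0342). The HFHS call held in all 13 fits that left out 1 array, the pollutant call in 5 of 13 (adjusted p up to 0.133). Without pollutant replicates 2 and 5 together, the adjusted p with pollutants was 0.0759. Of 11 genes of saturated and monounsaturated fatty acid synthesis, 1 passed in each comparison with ST vehicle. The medians of the 11 were -0.445 with HFHS and -0.224 with pollutants. The gene that passed was Acss2, which makes acetyl-CoA from acetate. It gave -1.76 ± 0.29 (adjusted p = 0.0216) in HFHS and -1.51 ± 0.29 (adjusted p = 0.0345) in pollutant livers. The Acss2 calls were lost without any 1 ST vehicle sample, and with pollutants also without HFHS replicate 1 or pollutant replicates 3, 4 or 5. Neither was called without HFHS replicates 3, 4 and 5 together or without slide 1, and the one with pollutants was not called without pollutant replicates 2 and 5 together. The difference between these lists and the 8 members was not tested.

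**Figure D4:**
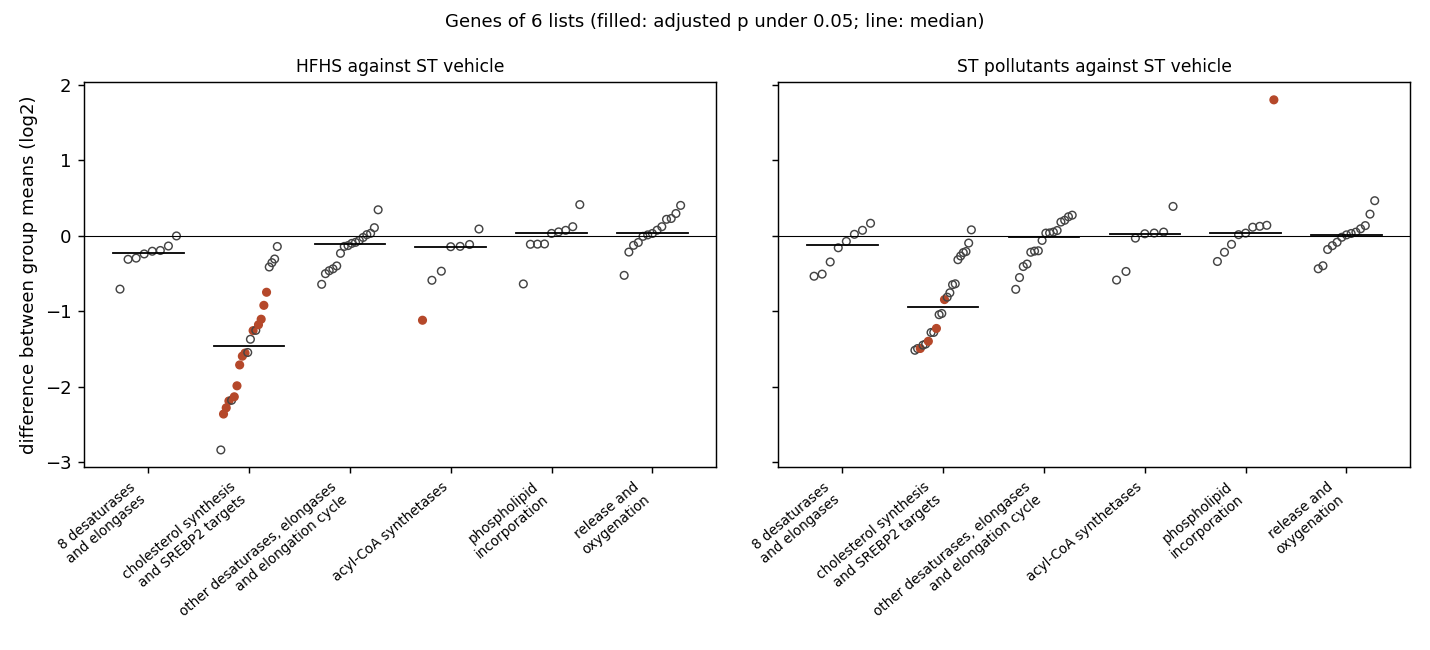
Log2 differences against ST vehicle (vertical axis) of the 8 desaturases and elongases and of the genes of 5 other lists, in HFHS (left panel) and ST pollutants (right panel); each point is a gene, filled where the adjusted p was under 0.05, and lines are medians. The cholesterol list has 13 filled points with HFHS and 4 with ST pollutants, and the 8 desaturases and elongases have 0 in both.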

How the data were processed

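Liver RNA of 13 samples was measured on one-colour (Cy3) arrays on 5 slides. The scanner files give an intensity for each spot, which the authors extracted, per the file headers, with Agilent Feature Extraction 11.5.1.1. The processed signal, which the program had already corrected for background, was used. Normalized log2 values of 26082 probes, also deposited, come from limma according to the submitters' processing notes, and this table served only as an alternative.

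Outlier spots were set to missing, spots of a probe were averaged on the log2 scale, and values were set relative to the 75th percentile of their array (782 to 1354 intensity units). Probes entered if some group had all its arrays well above background (25030 probes), and the brightest probe stood for a gene. limma 3.58.1 in R 4.3.3 fitted 3 groups with 3 contrasts, two-sided, over 19518 genes, with Benjamini-Hochberg adjustment. The fit was tested on simulated data with independent normal noise. Those data held no slide effect and no correlation between genes, so they do not show how the fit behaves with either. HFHS and pollutant samples of one number share a slide, and the ST vehicle samples lie on 3 of these slides. The number of arrays, above all 3 in ST vehicle, limits the precision.

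The named genes were the members with every probe, up to 4 called genes per list and comparison by smallest p, and the 3 genes most like each member; the other list genes given here were picked with their values known. The members, lists and alternatives were chosen with earlier results of these data known. Lists of clock, sex-biased and PPARalpha target genes served as background to single arrays. Alternatives covered background correction, scaling, filters, blocks, the authors' table and left-out arrays. Protein sequences were not used here.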

Additional observations from a re-analysis of the deposited data

Results flagged for a closer look

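In the members' 11 probes, 22 groups of 5 samples were examined for a sample far from the others, of which 5 were marked; chance marks about 1 in 20. Both Fads3 probes marked ST pollutants replicate 2, with 0.052 on the brighter probe (the other pollutant samples read -1.91 to -1.42) and -2.21 on the other (the others read -3.32 to -3.01). Elovl2 in HFHS replicate 1 read 3.95, below 4.38 to 4.49 in the other HFHS samples. ST pollutants replicate 5 read 5.38 in Elovl2, above 4.20 to 4.41 in the other pollutant samples, and 5.54 in Elovl5, above 4.20 to 4.57. The groups of 3 ST vehicle samples were not examined in this way.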

How the results depend on the processing

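Over 28 alternatives, 0 of 672 values of the 8 members were called, and the lowest adjusted p was 0.237; 643 kept their sign and 29 did not. In HFHS against ST vehicle, Fads2 was -0.14 with normexp background correction, -0.042 in the authors' deposited table and -0.157 to 0.123 leaving out 1 array, Fads3 was 0.04 with normexp, and Elovl5 was 0.002 without slide 1. In pollutants against ST vehicle, values leaving out 1 array were -0.252 to 0.237 for Fads3, -0.184 to 0.11 for Elovl2, -0.859 to 0.006 for Elovl3 and -0.287 to 0.065 for Scd2; Scd2 was 0.003 without slide 1. Without pollutant replicates 2 and 5, an alternative chosen after seeing the data, Fads2 was -0.11, Fads3 -0.15 and Elovl2 -0.20. In HFHS against pollutants, leaving out 1 array gave -0.475 to 0.014 for Fads3 and -0.366 to 0.092 for Elovl3 (0 without pollutant replicate 2). There Elovl3 was 0.23 with normexp, 0.19 without HFHS replicates 3, 4 and 5 and 0.023 without pollutant replicates 2 and 5. In the same comparison Elovl1 was 0.047 without HFHS replicates 3, 4 and 5, Fads2 was 0.017 without slide 1 and 0.11 without pollutant replicates 2 and 5, and Elovl2 was 0.011 without the same pair. The cause was not tested. Fads1 in pollutants against ST vehicle stayed between -0.60 and -0.35, with an unadjusted p under 0.05 in 11 of 28.

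Counts of all genes called moved more. For HFHS against ST vehicle (134), they were 45 with normexp, 68 with median scaling, 55 without the filter, 84 and 337 with slide as a fixed and a random block, 25 with only the 2 groups, 23 to 140 leaving out 1 array, 4 without HFHS replicates 3, 4 and 5 and 1 without slide 1. For pollutants against ST vehicle (192) they were, in that order, 22, 48, 70, 67, 447, 40, 39 to 175, 92 and 3, and 57 without pollutant replicates 2 and 5. For HFHS against pollutants (756) they were 292, 323, 361, 1652 with slide as a random block, 349 to 712, 289 and 1, and 74 without pollutant replicates 2 and 5.

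Deviations of same-numbered samples correlated at -0.023 to 0.56 where the samples share a slide, and at -0.154 and -0.168 for the pairs with ST vehicle replicate 3, which lies on another slide. A same-slide pair (HFHS and pollutant replicate 2) was also below 0.1, so the numbers were not taken to pair the samples. The slide was tried as a block of its own, above. Slide 1 stood apart on the main axis of variation over all genes (first principal component, 22.8% of the variance). Its arrays lay at -35.41, -41.81 and -39.07, and the others between -2.27 and 36.71. The main model has no term for slide, so its p-values leave this out of account. With the replicate block, 53, 44 and 563 genes were called in the comparisons, 0 members were called, and Elovl2 in pollutants against ST vehicle was -0.14.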

Other observations

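The pair of Fads2 probes did not move alike within arrays, which was noticed after the values were seen. The brighter probe exceeded the dimmer by 1.53, 1.65, 1.06, 0.98 and 1.70 log2 units in the pollutant samples, and by 1.24, 1.10 and 1.18 in the ST vehicle samples. In the HFHS samples the gap was 1.03, 0.91, 1.19, 1.08 and 1.17. Pollutant replicates 1, 2 and 5 thus had a wider gap than any other array. The mean gap was 1.38 ± 0.34 in pollutant and 1.17 ± 0.07 in ST vehicle samples (SD, n = 5 and 3), a difference of 0.21 with p = 0.375 by a two-sided exact permutation test (0.375 after adjustment over 3 comparisons; the smallest p this design allows is 0.0179). HFHS against pollutants gave -0.30 with an exact permutation p of 0.127 (adjusted 0.348), and HFHS against ST vehicle -0.09 with an exact permutation p of 0.232 (adjusted 0.348).

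The lists used beside single arrays gave calls of their own. The shares called over all genes were 0.687% in HFHS against ST vehicle, 0.984% in pollutants against ST vehicle and 3.87% in HFHS against pollutants. Of 14 clock genes tested, 1 rose (Per2) and 1 fell (Arntl) in HFHS against ST vehicle. In pollutants against ST vehicle 5 rose and 2 fell, among them Per2 (1.85 ± 0.29, adjusted p = 0.0158 in limma), a repressor of the clock, and Arntl (-2.13 ± 0.28, adjusted p = 0.00636 in limma), its activator. With pollutants, leaving out 1 array gave 1 to 6 higher and 1 to 2 lower, leaving out pollutant replicates 2 and 5 together gave 0 and 1, and leaving out slide 1 gave 0 and 0. In HFHS against pollutants 1 was lower (Per1), and it stayed called in 4 of 13 fits that left out 1 array. Of 15 PPARalpha targets, 1 rose in HFHS against ST vehicle (Cd36, a fatty acid carrier, by 0.93 ± 0.18, adjusted p = 0.0458 in limma) and 0 passed in pollutants against ST vehicle, where the median was 0.50. In HFHS against ST vehicle, Per2 stayed called in 8 and Arntl in 9 of 13 fits that left out 1 array, and both stayed called in all 13 with pollutants. No clock gene was called in HFHS against ST vehicle without HFHS replicates 3, 4 and 5 together. The same held there without pollutant replicates 2 and 5 together and without slide 1. Without pollutant replicates 2 and 5 together, the adjusted p of Per2 with pollutants was 0.0763. Cd36 stayed called in 2 of 13 fits that left out 1 array. Of 10 male-biased genes 1 (Cyp2u1) was lower, and of 12 female-biased genes 1 (Hao2) was higher, in HFHS against pollutants. Hao2 stayed called in 6 of 13 fits that left out 1 array (adjusted p up to 0.0679). Cyp2u1 stayed called in 13 of 13, but had an adjusted p of 0.0675 without pollutant replicates 2 and 5 together. Neither was called without slide 1, and Hao2 was not without HFHS replicates 3, 4 and 5 together.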
